A study of Homo sapiens with 30 samples.

Results

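The small heat shock protein genes HSPB1, HSPB8 and CRYAB and the BAG family genes BAG1 to BAG5 were followed through every library of a study of SUMO inhibition in human cancer cells. These 8 genes were chosen by name, with earlier results of these data known, and all 8 were found among the 30373 genes of the deposited table. ML-792 (ML00754792 in the labels) inhibits SAE, the enzyme that activates SUMO, and SUMO is a small protein attached to other proteins. The study holds 30 libraries of mRNA in 10 groups of 3, which the labels call triplicates of separate biological samples. HCT116 and COLO205 came from colorectal cancers, and MDAMB231 came from a breast cancer. Each line was given 500 nM ML-792, or 0.01% DMSO as its vehicle control, for 16 h. HCT116 cells were also given ML-792 or DMSO for 3.5 h in all, with or without heat shock. The heat-shocked cells spent 2 h in ML-792 or DMSO, then 0.5 h at 43 °C and 1 h of recovery at 37 °C.

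Small heat shock proteins bind unfolding proteins without using ATP and keep them from aggregating until ATP-driven chaperones take over. BAG proteins share a domain that binds the ATPase domain of HSP70 and speeds the exchange of its nucleotide, so that the bound protein is released. BAG3 also carries a motif that binds small heat shock proteins, HSPB8 above all, and with HSP70 passes damaged proteins to autophagy. Several of these genes are classical targets of the heat shock factor HSF1, which binds repeats of the unit GAA and its reverse complement.

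Values are FPKM, fragments relative to the length of the transcript and the size of the library, as the authors deposited them, so that levels of different genes can be set side by side per length. They come from bulk cultures, in which fewer cells with a transcript and less of it per cell cannot be told apart. Depth was not given with the values and was estimated from the steps between low values. At 16 h a library held an estimated 26.2 to 33.6 M fragments (M, mega). The heat-shocked libraries held 37.01 to 54.6 M, and their unshocked counterparts held 46.9 to 73.01 M, with 3 of the 3.5 h libraries giving an uncertain estimate. The FPKM of all genes summed to 608121 to 732251 per heat-shocked library, against 552951 to 575982 without heat shock. The sample codes of heat-shocked libraries also lie in another number range, so heat shock and any difference in handling between these sets cannot be told apart, nor can the 2 times and the 2 experiments. Line markers were checked in untreated cells (DMSO, 16 h). Of 9 epithelial and intestinal genes 5 averaged 1 FPKM or more in HCT116, 7 in COLO205 and 3 in MDAMB231. Of 7 mesenchymal genes 6, 2 and 6 did in the same lines. The mesenchymal genes summed to 309 to 320 FPKM per library in HCT116, 25.4 to 28.4 in COLO205 and 1738 to 1823 in MDAMB231. In HCT116 with DMSO at 3.5 h without heat shock, 4 of these 7 averaged 1 FPKM or more. Of the intestinal markers, KRT20 averaged 0.587 FPKM or less in the untreated lines, and CDX2 averaged 0.275 FPKM in COLO205.

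The promoters are shown because the largest changes of HSPB1, CRYAB and BAG3 were those with heat shock. BAG1, BAG2 and BAG4 differed more between untreated lines. A table of RefSeq promoters (build GRCh38.p14, 250 bases before the transcript start to 50 after it) had entries for 6 of the 8 genes. CRYAB and BAG4 had none. The letters searched were 2 heat shock units facing each other, as GAANNTTC or TTCNNGAA, and 3 units in a row, as GAANNTTCNNGAA or its reverse complement TTCNNGAANNTTC. The 2-unit motifs read the same on both strands, and the 3-unit motif contains one of each. Each sequence below is the 250 bases before the start and the first 20 after it, 5′ to 3′ on the plus strand, with GAANNTTC matches in capitals. They lie at chr7:76302423-76302692 for HSPB1, chr12:119178681-119178950 for HSPB8, chr6:57172076-57172345 for BAG2 and chr10:119651130-119651399 for BAG3.
HSPB1: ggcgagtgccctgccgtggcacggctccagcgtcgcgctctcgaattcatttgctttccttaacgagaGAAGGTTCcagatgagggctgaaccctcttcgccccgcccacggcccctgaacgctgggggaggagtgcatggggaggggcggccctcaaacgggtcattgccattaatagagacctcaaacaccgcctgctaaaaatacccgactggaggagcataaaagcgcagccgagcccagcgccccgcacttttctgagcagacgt
HSPB8: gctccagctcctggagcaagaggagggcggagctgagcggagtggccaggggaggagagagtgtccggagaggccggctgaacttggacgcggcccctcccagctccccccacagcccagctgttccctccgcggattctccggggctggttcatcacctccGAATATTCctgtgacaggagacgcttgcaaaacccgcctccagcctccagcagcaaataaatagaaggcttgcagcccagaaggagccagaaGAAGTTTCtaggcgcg
BAG2: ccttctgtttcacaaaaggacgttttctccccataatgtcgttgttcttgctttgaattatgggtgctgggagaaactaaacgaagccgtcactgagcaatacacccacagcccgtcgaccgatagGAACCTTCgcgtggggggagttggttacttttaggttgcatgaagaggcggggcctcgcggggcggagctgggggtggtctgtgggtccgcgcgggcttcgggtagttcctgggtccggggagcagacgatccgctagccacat
BAG3: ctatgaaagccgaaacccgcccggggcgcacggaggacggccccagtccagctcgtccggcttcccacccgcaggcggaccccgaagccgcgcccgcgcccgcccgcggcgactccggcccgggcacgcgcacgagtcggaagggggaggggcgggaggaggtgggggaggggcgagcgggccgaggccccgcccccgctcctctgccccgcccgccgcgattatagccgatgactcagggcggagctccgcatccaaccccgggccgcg
HSPB1 had 1 match, at -182 to -175 from the start. HSPB8 had 2 matches, at -88 to -81 and at 4 to 11 after the start. BAG2 had 1 match at -124 to -117. No match to any of these letters lay in the windows of BAG1, BAG3 or BAG5. GAANNTTC was present in 2377 of 35116 promoters of this table (6.77%), TTCNNGAA in 7.74% and the 3-unit motif in 0.490%. These matches describe letters and not bound sites.

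Heat shock raised all 3 small heat shock protein genes and BAG3 in HCT116 cells, in both ML-792 and DMSO, and lowered BAG4. HSPB1 was 8.02-fold higher with heat shock in ML-792 and 7.77-fold higher in DMSO. BAG3 was 15.5-fold higher in ML-792 and 13.7-fold higher in DMSO. CRYAB was at or near 0 without heat shock and above 14 FPKM in every heat-shocked library. In the limma test over 12191 genes, 4 of the 8 genes rose and 2 fell in ML-792, where 39.3% of all genes rose and 22.3% fell, 61.7% in all. In DMSO, 5 rose and 2 fell, where 28.9% of all genes rose and 20.6% fell, 49.5% in all. CRYAB, counted among the genes that rose in both, was tested only because of its level in the heat-shocked libraries. The share of all calls that were higher was 63.8% in ML-792 and 58.4% in DMSO as deposited, 50.3% and 51.4% under median-of-ratios scaling, and 24.2% and 22.2% when libraries were scaled to equal summed FPKM. HSPB1, HSPB8, CRYAB and BAG3 stayed higher and BAG4 stayed lower under all 3 scalings, each past the threshold.

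**Figure D1:**
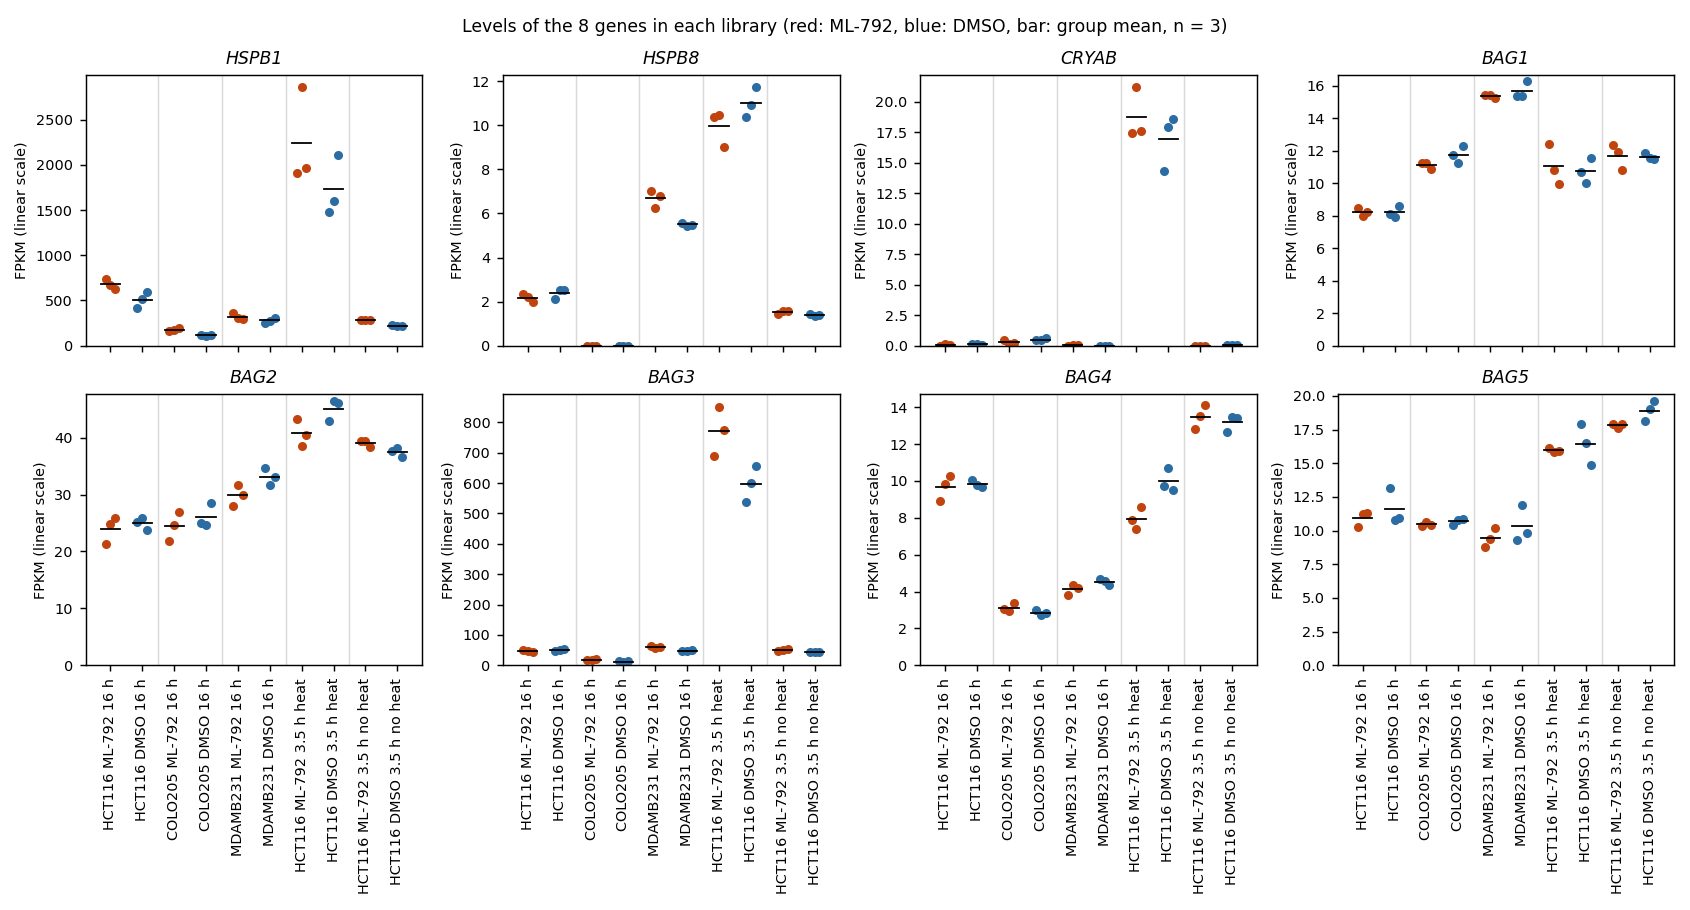
Level of each gene in all 30 libraries, in FPKM on a linear axis that starts at 0 and differs between panels. Points are libraries, red for ML-792 and blue for DMSO, and bars are means of n = 3. HSPB1, HSPB8, CRYAB and BAG3 were highest in the heat-shocked groups, and BAG4 was highest in HCT116 at 3.5 h without heat shock.

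HSPB1 encodes HSP27, a widely expressed small heat shock protein that forms large oligomers. In ML-792 its level was 1914, 2862 and 1966 FPKM with heat shock, against 281, 280.5 and 279.5 FPKM without. In DMSO it was 1482, 1600.0 and 2105 FPKM with heat shock, against 233, 218 and 216 FPKM without. Every heat-shocked library stood far above every library without heat shock. The log2 changes on the FPKM + 1 scale were 2.97 ± 0.15 (SE) in ML-792 and 2.94 ± 0.15 in DMSO, with adjusted p = 6.0e-09 and 6.3e-09 by limma. HSPB1 ranked 27 of 12191 genes by size of increase in both. Its share of all FPKM was 0.322 ± 0.060% in ML-792 with heat shock and 0.0498 ± 0.0010% without (SD, n = 3).

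HSPB8 encodes HSP22, the small heat shock protein that pairs with BAG3. With heat shock its level in ML-792 was 10.4, 10.5 and 9.04 FPKM, against 1.45, 1.56 and 1.55 FPKM without. In DMSO it was 10.4, 10.9 and 11.7 FPKM with heat shock, against 1.43, 1.32 and 1.39 FPKM without. The groups did not overlap, and all values without heat shock lay under 2 FPKM. The log2 change was 2.12 ± 0.07 in ML-792 and 2.33 ± 0.07 in DMSO, with adjusted p = 7.5e-11 and 3.1e-11 by limma. As ratios of mean FPKM these were 6.55-fold and 7.97-fold, and with a pseudocount of 5 in place of 1 FPKM the log2 changes became 1.20 and 1.33.

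CRYAB encodes alpha B-crystallin, a structural protein of the lens that is also abundant in muscle. With heat shock it stood at 17.4, 21.2 and 17.6 FPKM in ML-792, where all 3 libraries without heat shock were listed at 0. In DMSO it stood at 14.3, 17.9 and 18.6 FPKM with heat shock, against 0.0296, 0.0195 and 0.0282 FPKM without. CRYAB reached 1 FPKM, the level needed to be tested, in heat-shocked libraries alone. It thus entered the fit through the groups where it was high, and its p-values are no separate support for the rise. The fitted log2 change was 4.30 ± 0.09 in ML-792 and 4.12 ± 0.09 in DMSO, with adjusted p = 2.4e-12 and 2.8e-12 by limma. These sizes depend on the pseudocount, because the level without heat shock was near 0: with 0.1 in place of 1 FPKM they became 7.55 and 7.08, and with 5 they became 2.24 and 2.12. CRYAB overlaps HSPB2 and the read-through HSPB2-C11orf52 in RefSeq, and how shared reads were counted is not given in the sources used here. HSPB2 averaged 0.221 FPKM in ML-792 with heat shock and was listed at 0 without, and HSPB2-C11orf52 averaged 1.03 FPKM with heat shock and 0.740 FPKM without.

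BAG3 is the stress-inducible member of the BAG family. In ML-792 it stood at 690.2, 851 and 775 FPKM with heat shock, against 48.7, 48.8 and 52.05 FPKM without. In DMSO it stood at 539, 600.5 and 656 FPKM with heat shock, against 42.8, 44.9 and 43.3 FPKM without. The log2 change was 3.92 ± 0.08 in ML-792 and 3.74 ± 0.08 in DMSO, adjusted p = 2.4e-12 and 2.8e-12 by limma. BAG3 ranked 10 of 12191 genes by size of increase in ML-792 and 12 in DMSO. As a share of the summed FPKM of the 5 BAG genes, BAG3 made up 91.0 ± 1.3% in ML-792 with heat shock and 37.8 ± 1.1% without, and 87.9 ± 1.0% against 34.98 ± 0.33% in DMSO (SD, n = 3). The summed level was 848 ± 77 FPKM with heat shock and 132 ± 1.2 FPKM without in ML-792, and 681 ± 59 against 125 ± 2.0 FPKM in DMSO.

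**Figure D2:**
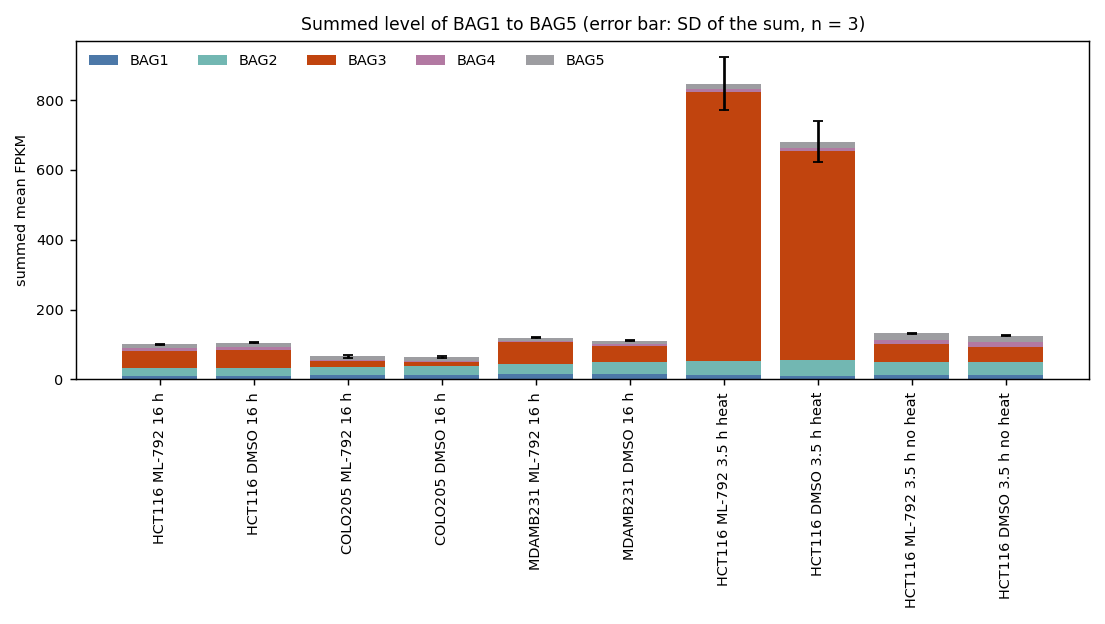
Summed mean FPKM of BAG1 to BAG5 in each of the 10 groups, as stacked bars from 0, with the SD of the sum as error bar (n = 3). The heat-shocked groups reach 848 FPKM in ML-792 and 681 FPKM in DMSO, of which BAG3 makes up 91.0% and 87.9%, while the other groups stand at 132 FPKM or less.

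The other BAG genes moved little or went down. BAG4 encodes SODD, known for binding the death domain of the TNF receptor TNFR1. With heat shock it stood at 7.87, 7.37 and 8.61 FPKM in ML-792, against 12.8, 13.5 and 14.1 FPKM without. In DMSO it stood at 9.70, 10.7 and 9.50 FPKM with heat shock, against 12.7, 13.5 and 13.4 FPKM without. Every heat-shocked library lay under every library without heat shock, and BAG4 fell by 0.70 ± 0.07 on the log2 scale in ML-792 and by 0.37 ± 0.07 in DMSO (limma adjusted p = 2.5e-06 and 0.00055). The change in DMSO was -0.59 with equal summed FPKM. BAG5, whose protein holds several BAG domains in a row, averaged 16.0 ± 0.1 FPKM with heat shock and 17.8 ± 0.2 FPKM without in ML-792, and 16.4 ± 1.5 against 18.9 ± 0.7 FPKM in DMSO. Its log2 changes of -0.15 ± 0.06 and -0.20 ± 0.06 passed narrowly, with adjusted p = 0.049 and 0.019 by limma. The call in ML-792 was lost when any one of the libraries compared was left out, with adjusted p up to 0.11, and also with no filter (0.064) or no trend or robust moderation (0.054). The call in DMSO was lost without DMSO heat shock replicate 3, without DMSO no-heat replicate 2 or without DMSO no-heat replicate 3, with adjusted p of 0.072, 0.057 and 0.078.

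BAG2, whose protein inhibits the HSP70-associated ubiquitin ligase CHIP, stood at 42.9, 46.4 and 46.0 FPKM with heat shock in DMSO, against 37.7, 38.1 and 36.6 FPKM without. It rose there by 0.26 ± 0.05 on the log2 scale (limma adjusted p = 0.0016), but by only 0.03 (adjusted p = 0.75) when libraries were scaled to equal summed FPKM. In ML-792 it averaged 40.8 ± 2.4 FPKM with heat shock and 39.1 ± 0.6 FPKM without, a log2 change of 0.06 ± 0.05 (adjusted p = 0.36) as deposited that turned to -0.04 (adjusted p = 0.52) under median-of-ratios scaling and to -0.23 ± 0.07 (adjusted p = 0.0090) with equal summed FPKM. BAG1, which links HSP70 to the proteasome through a ubiquitin-like domain, had log2 changes of -0.08 ± 0.08 in ML-792 and -0.11 ± 0.08 in DMSO that missed the threshold (limma adjusted p = 0.41 and 0.28). With equal summed FPKM these became -0.35 and -0.33 and passed, with adjusted p = 0.0032 and 0.0057. That scaling moved the median of all genes to -0.157 in ML-792 and -0.159 in DMSO, against 0.103 and 0.0510 as deposited. Relative to the median of all genes, BAG2 in ML-792 changed by -0.04 as deposited and by -0.08 with equal sums, and BAG1 by -0.18 and -0.19.

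**Figure D3:**
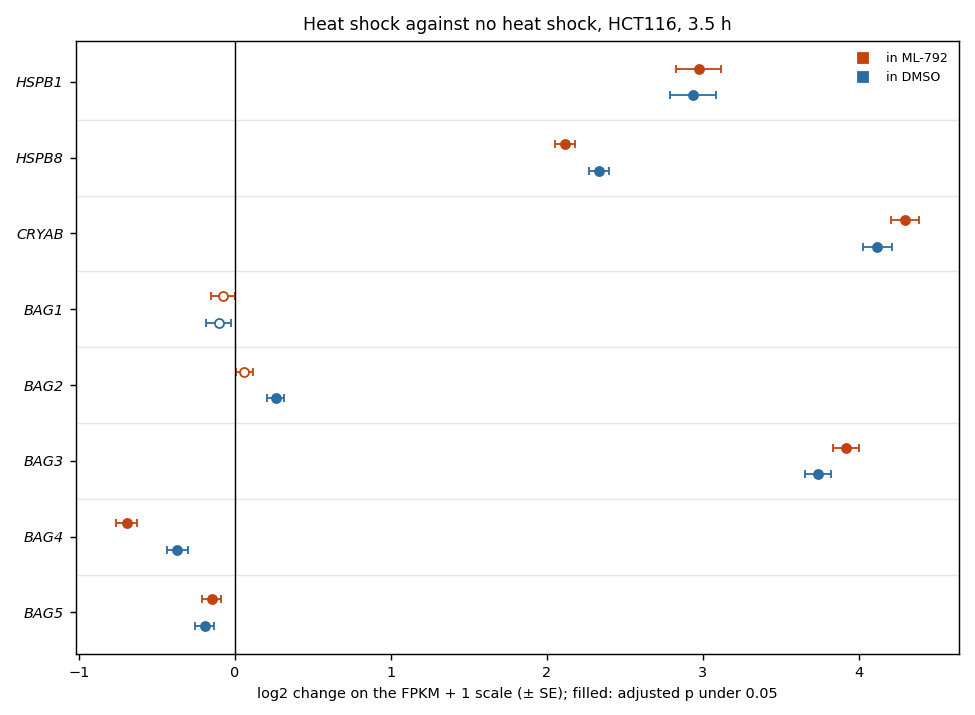
Change with heat shock in HCT116 cells at 3.5 h, as log2 change on the FPKM + 1 scale with SE, in ML-792 (red) and in DMSO (blue). Filled points had an adjusted p under 0.05. HSPB1, HSPB8, CRYAB and BAG3 lie between 2.12 and 4.30 in both, BAG4 lies at -0.70 and -0.37, and the others lie within 0.3 of 0.

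Other chaperone genes were measured beside them, listed by function except for the first list, which was chosen by known heat induction. The rise of that list with heat shock follows from this choice. All 12 of a list of heat-inducible chaperones and cochaperones rose with heat shock in both ML-792 and DMSO, with a list median log2 change of 1.05 and 1.04, against medians of 0.103 and 0.0510 over all genes, and all 12 also rose under both other scalings. DNAJB1, an HSP40 partner of HSP70, changed by 4.29 ± 0.08 in ML-792 and 4.38 ± 0.08 in DMSO, and SERPINH1, a collagen chaperone, by 3.17 ± 0.09 and 3.44 ± 0.09 (log2 ± SE). Of 15 HSP70 and HSP110 genes, 12 rose and none fell in both ML-792 and DMSO (list medians 0.81 and 1.15), where 39.3% and 28.9% of all genes rose. With equal summed FPKM, 8 rose and 3 fell in ML-792, and 9 rose and 1 fell in DMSO. HSPA6, a strictly stress-inducible HSP70, changed by 6.99 ± 0.11 and 6.01 ± 0.11, and HSPA1B by 4.93 ± 0.11 and 4.57 ± 0.11, although HSPA1B is nearly identical to HSPA1A and the split of reads between them is uncertain. Among 8 other nucleotide exchange factors of HSP70, 6 rose and 1 fell in ML-792, and 4 rose and 1 fell in DMSO (list medians 0.36 and 0.15), which became 2 and 2, and 3 and 2, with equal summed FPKM. HSPA4, HSPA4L, HSPH1 and HYOU1 were counted in this list and also among the HSP70 and HSP110 genes. HSPH1 changed by 2.54 ± 0.08 and 3.05 ± 0.08, while GRPEL2, a mitochondrial exchange factor, changed by -0.64 ± 0.07 and -0.36 ± 0.07.

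Genes for known partners of BAG proteins were called about as often as all genes. Of 22 partners listed, 17 were tested and 10 called in both ML-792 and DMSO, where 61.7% and 49.5% of all genes were. Of these, 8 rose and 2 fell in ML-792 and 7 rose and 3 fell in DMSO, but 5 rose and 7 fell, and 5 rose and 6 fell, with equal summed FPKM. DNAJB2 changed by 1.69 ± 0.10 in ML-792 and 1.74 ± 0.10 in DMSO, DNAJB6 by 0.90 ± 0.05 and 1.08 ± 0.05, the kinase gene LATS2 by 1.12 ± 0.06 and 1.19 ± 0.06, and the autophagy gene MAP1LC3B by 0.94 ± 0.07 and 0.92 ± 0.07. TNFRSF1A, which encodes the receptor that BAG4 protein binds, changed by -0.15 ± 0.06 and -0.30 ± 0.06. The list medians were 0.11 in both as deposited, and -0.19 and -0.13 with equal summed FPKM. Among 4 heat shock factor genes, HSF2 fell in both, by 0.75 ± 0.09 and 0.45 ± 0.09, while 3 rose in ML-792 and 2 in DMSO, which became 1 and 0 with equal summed FPKM. Of 9 other small heat shock protein and BAG family genes only HSPB11 and BAG6 passed the filter on low values. BAG6 rose in ML-792 by 0.21 ± 0.06, but by 0.11 under median-of-ratios scaling and by -0.08 with equal summed FPKM, neither of which passed (adjusted p = 0.063 and 0.16), and in DMSO it was called lower with equal summed FPKM alone. HSPB11 rose in DMSO by 0.41 ± 0.09, and by 0.18 with equal summed FPKM, where it did not pass (adjusted p = 0.086), and in ML-792 it missed the threshold as deposited but was called lower under both other scalings. The other genes named in these lists kept their direction and call under both other scalings. All changes in these lists are log2 values from the same limma fit, and each gene said to rise or fall had an adjusted p under 0.05.

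Whether ML-792 changed the heat response was asked within the heat-shocked cells and by the difference of the effects. With heat shock, BAG3 averaged 772 ± 80 FPKM in ML-792 and 598 ± 58 FPKM in DMSO (SD, n = 3), and every ML-792 library lay above every DMSO library. BAG3 rose by 0.37 ± 0.08 on the log2 scale (limma adjusted p = 0.0081). BAG4 averaged 7.95 ± 0.62 FPKM in ML-792 and 9.97 ± 0.65 FPKM in DMSO, again with no overlap, and fell by 0.29 ± 0.07 (adjusted p = 0.0076). These were 2 of 8 genes called, where 33.5% of all genes were called. Both calls were lost in a fit of these 6 libraries alone (adjusted p = 0.091 for BAG3 and 0.079 for BAG4), in which 255 genes were called in all, against 4083 in the fit of 12 libraries.

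HSPB1 averaged 2247 ± 533 FPKM in ML-792 and 1729 ± 331 FPKM in DMSO with heat shock, with overlapping libraries and a log2 change of 0.37 ± 0.15 that missed the threshold (limma adjusted p = 0.068). The highest ML-792 library stood at 2862 FPKM, and DMSO replicate 3, at 2105 FPKM, lay above the other 2 ML-792 libraries. Without DMSO heat shock replicate 3 the change was 0.52 (adjusted p = 0.013), and it also passed without ML-792 heat shock replicate 1 or replicate 3 (adjusted p = 0.041 and 0.044). No other alternative gave a call for HSPB1, with adjusted p up to 0.27. With a library left out the change ran from 0.18 to 0.52. HSPB8 averaged 9.96 ± 0.80 FPKM in ML-792 and 11.01 ± 0.68 FPKM in DMSO, a log2 change of -0.13 ± 0.07 (adjusted p = 0.13). BAG2 averaged 40.8 ± 2.4 and 45.1 ± 1.9 FPKM, a change of -0.14 ± 0.05 (adjusted p = 0.056). BAG2 was called without DMSO heat shock replicate 1 or ML-792 heat shock replicate 1 (adjusted p = 0.035 and 0.026) and with a filter at 5 FPKM (0.049). Both genes were called lower under each of the other scalings: HSPB8 with adjusted p = 0.038 under median-of-ratios scaling and 0.035 with equal summed FPKM, and BAG2 with 0.016 and 0.034. No other alternative gave a call, with adjusted p up to 0.37 for HSPB8 and 0.24 for BAG2. CRYAB, BAG1 and BAG5 had log2 changes of 0.14 ± 0.09, 0.04 ± 0.08 and -0.04 ± 0.06 and did not pass, and that of BAG1 was negative under both other scalings (-0.01 and -0.03).

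The heat effect itself did not differ between ML-792 and DMSO for any of the 8 genes at the adjusted threshold in limma, where 6.41% of all genes did, and 3 of the 8 had an unadjusted p under 0.05. The largest difference was that of BAG4, at -0.33 ± 0.09 (adjusted p = 0.053). It passed when ML-792 heat shock replicate 3 or DMSO heat shock replicate 3 was left out (adjusted p = 0.014 and 0.037), under median-of-ratios scaling (-0.37, adjusted p = 0.041) and with a filter at 5 FPKM (adjusted p = 0.047). It passed in no other alternative, with adjusted p up to 0.14. HSPB8 had a difference of -0.22 ± 0.09 (adjusted p = 0.14) and BAG2 of -0.20 ± 0.08 (adjusted p = 0.10). For BAG3 it was 0.18 ± 0.12 (adjusted p = 0.31) and for HSPB1 0.04 ± 0.21 (adjusted p = 0.92), so the errors leave room for differences of some size in either gene. CRYAB had a difference of 0.18 ± 0.13, BAG1 of 0.03 ± 0.11 and BAG5 of 0.04 ± 0.09, and those of HSPB1, BAG1 and BAG5 were negative under both other scalings, between -0.02 and -0.01.

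In HCT116 cells at 3.5 h without heat shock, none of the 8 genes passed in limma, where 1.21% of all genes did, and 2 of the 8 had an unadjusted p under 0.05. These were HSPB1, at 280.3 ± 0.7 FPKM in ML-792 and 222 ± 9 FPKM in DMSO, and BAG3, at 49.8 ± 1.9 and 43.7 ± 1.1 FPKM. Their log2 changes were 0.33 ± 0.15 (adjusted p = 0.64) and 0.19 ± 0.08 (adjusted p = 0.65), and neither gene's libraries overlapped. In a fit of these 6 libraries alone both passed, HSPB1 with adjusted p = 0.00031 and BAG3 with 0.012. The main fit instead gave each gene a common spread over all its groups, heat-shocked ones included. Libraries also did not overlap for HSPB8 and BAG2, higher in ML-792, and for CRYAB and BAG5, lower in ML-792, CRYAB being listed at 0 there. In DMSO CRYAB was at 0.0296 FPKM or less. It was tested only because of the heat-shocked libraries of the same fit, and could not have been called here. Log2 changes were 0.08 ± 0.07 for HSPB8, 0.06 ± 0.05 for BAG2, -0.04 ± 0.09 for CRYAB and -0.08 ± 0.06 for BAG5. BAG4 and BAG1, whose libraries overlapped, changed by 0.03 ± 0.07 and 0.01 ± 0.08, the last being -0.01 with equal summed FPKM. Over all genes, 14.3% had non-overlapping libraries with ML-792 higher and 13.3% with ML-792 lower.

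After 16 h, ML-792 raised HSPB1 in the 2 colorectal lines, BAG3 in COLO205 and MDAMB231, and HSPB8 in MDAMB231, each by less than 1 log2 unit. Of the 7 genes tested, 1 was called in HCT116, 2 in COLO205 and 2 in MDAMB231, where 14.7%, 37% and 16.9% of all 14251 genes were called. HSPB8 counts among the 7 in COLO205, although every COLO205 library listed it at 0 and no call was possible there. CRYAB did not pass the filter of 1 FPKM in at least 3 libraries, and its highest 16 h value was 0.606 FPKM, in COLO205 with DMSO. In COLO205 it averaged 0.26 ± 0.14 FPKM in ML-792 and 0.50 ± 0.09 FPKM in DMSO (SD). With no filter CRYAB was tested too, so counts of genes called in that setting include it.

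HSPB1 stood at 736, 676 and 630.5 FPKM in ML-792 and 419, 516 and 589 FPKM in DMSO in HCT116. In COLO205 it stood at 158, 173 and 191 FPKM in ML-792 and 114, 109 and 119 FPKM in DMSO. The libraries of both lines separated fully, and HSPB1 rose by 0.43 ± 0.12 in HCT116 and by 0.61 ± 0.12 in COLO205 on the log2 scale (limma adjusted p = 0.019 and 0.00071). The HCT116 call was lost without DMSO replicate 1, ML-792 replicate 1 or ML-792 replicate 2 (adjusted p = 0.065, 0.055 and 0.058) and in a fit of the 6 HCT116 libraries alone (0.063). In MDAMB231 it stood at 365, 302 and 292 FPKM in ML-792 and 254, 277 and 309 FPKM in DMSO, which overlapped, and the change of 0.19 ± 0.12 did not pass (adjusted p = 0.32). No pair of lines differed in the effect on HSPB1 at the adjusted threshold, and the difference MDAMB231 minus COLO205 was -0.42 ± 0.16 (adjusted p = 0.072). It passed without COLO205 ML-792 replicate 1 or MDAMB231 ML-792 replicate 1 (adjusted p = 0.047 and 0.030) and in a fit of the libraries of these 2 lines (0.036). It did so in no other alternative, with adjusted p up to 0.16. For COLO205 minus HCT116 it was 0.17 ± 0.16 and for MDAMB231 minus HCT116 -0.24 ± 0.16.

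BAG3 stood at 16.0, 16.3 and 19.2 FPKM in ML-792 and 12.6, 12.2 and 12.6 FPKM in DMSO in COLO205. In MDAMB231 it stood at 64.0, 58.6 and 58.9 FPKM in ML-792 and 46.8, 46.9 and 49.0 FPKM in DMSO. Neither line's groups overlapped, and BAG3 rose by 0.43 ± 0.06 in COLO205 and by 0.34 ± 0.06 in MDAMB231 (limma adjusted p = 3.5e-05 and 0.00075). HCT116 cells had 50.6, 47.6 and 44.7 FPKM in ML-792 and 47.4, 51.4 and 52.5 FPKM in DMSO, which overlapped, with a log2 change of -0.08 ± 0.06 (adjusted p = 0.42). The effect on BAG3 exceeded that in HCT116 by 0.51 ± 0.09 in COLO205 (adjusted p = 0.00050) and by 0.42 ± 0.09 in MDAMB231 (adjusted p = 0.0040). BAG3 was the 1 gene of 7 called for COLO205 minus HCT116, where 19.4% of all genes were called. HSPB8 is among these 7, but it had no measurable level in COLO205, so its value there only restates the HCT116 change. BAG3 and HSPB8 were the 2 of 7 called for MDAMB231 minus HCT116, where 10.8% of all genes were.

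HSPB8 was the other gene whose effect differed between MDAMB231 and HCT116. In MDAMB231 it stood at 6.997, 6.27 and 6.80 FPKM in ML-792 and 5.58, 5.45 and 5.48 FPKM in DMSO, with no overlap, and rose by 0.24 ± 0.06 (limma adjusted p = 0.0051), or by 0.15 with a pseudocount of 5. In HCT116 it stood at 2.34, 2.20 and 1.99 FPKM in ML-792 and 2.10, 2.51 and 2.51 FPKM in DMSO, a change of -0.09 ± 0.06 (adjusted p = 0.33). All 6 COLO205 libraries listed HSPB8 at 0. The effect in MDAMB231 exceeded that in HCT116 by 0.33 ± 0.08 (adjusted p = 0.011), a call lost with a pseudocount of 0.1 (adjusted p = 0.069), and by 0.19 with a pseudocount of 5. With the gene listed at 0 no effect could be measured in COLO205. The 1 call among 7 for MDAMB231 minus COLO205, where 26% of all genes were called, was HSPB8 at 0.24 ± 0.08 (adjusted p = 0.030), which restates the MDAMB231 change and cannot show a difference between these lines. That call was lost with a pseudocount of 0.1 (adjusted p = 0.13) and without any one of COLO205 DMSO replicates 1, 2 and 3, COLO205 ML-792 replicate 2, MDAMB231 DMSO replicates 2 and 3 and MDAMB231 ML-792 replicates 1 and 3 (adjusted p up to 0.074).

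None of BAG1, BAG2, BAG4 and BAG5 passed in any line at 16 h. BAG2 had log2 changes of -0.06 ± 0.08 in HCT116, -0.09 ± 0.08 in COLO205 and -0.15 ± 0.08 in MDAMB231, and its ML-792 mean in MDAMB231, 29.8 ± 1.9 FPKM, lay under the DMSO mean of 33.1 ± 1.5 FPKM. Changes of BAG4 were -0.02 ± 0.06, 0.10 ± 0.06 and -0.11 ± 0.06 in the same order of lines. BAG1 changes lay between -0.07 and 0.00, and those of BAG5 between -0.11 and -0.03. The smallest adjusted p of these 12 tests was 0.20. BAG1 in HCT116, at 0.00 as deposited, was -0.01 and -0.03 under the other scalings. The effects on these 4 genes did not pass between any pair of lines. BAG4 in MDAMB231 minus COLO205, at -0.21 ± 0.08 (adjusted p = 0.064), passed without COLO205 ML-792 replicate 2 (0.044) and in no other alternative (up to 0.15). Their other differences of effect lay between -0.09 and 0.12, and that of BAG3 for MDAMB231 minus COLO205 was -0.09 ± 0.09.

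Set beside each other, the HCT116 effects of ML-792 at 16 h and at 3.5 h without heat shock were 0.43 and 0.33 for HSPB1 and -0.08 and 0.19 for BAG3. In the fit of both times, 0 of 7 genes differed in effect between 16 h and 3.5 h in limma, where 2.4% of all genes did, and 1 of the 7 had an unadjusted p under 0.05. This was BAG3, with a difference of -0.27 ± 0.07 (adjusted p = 0.067). The differences were 0.10 ± 0.14 for HSPB1, -0.17 ± 0.09 for HSPB8, -0.12 ± 0.08 for BAG2 and -0.05 ± 0.07 for BAG4. BAG1 had -0.0033 ± 0.072 and BAG5 had 0.0048 ± 0.089, negative under both other scalings, and CRYAB was not tested. The BAG3 difference passed without HCT116 DMSO 16 h replicate 1 or HCT116 ML-792 16 h replicate 1 (adjusted p = 0.023 and 0.018) and with equal summed FPKM (0.049). It passed in no other alternative, with adjusted p up to 0.16.

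**Figure D4:**
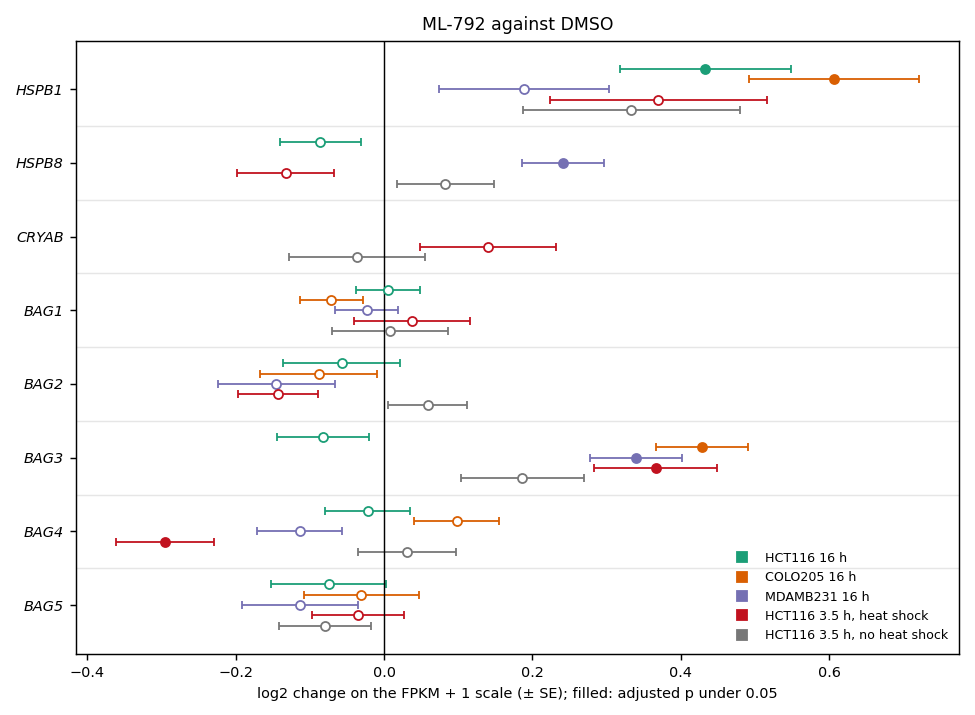
Change with ML-792 against DMSO in the 5 settings, as log2 change on the FPKM + 1 scale with SE. Filled points had an adjusted p under 0.05. HSPB1 lies above 0 in all 5 settings with 2 filled points, BAG3 has filled points in COLO205, MDAMB231 and heat-shocked HCT116, and the filled BAG4 point lies at -0.29. HSPB8 in COLO205, listed at 0, and CRYAB at 16 h, below the filter, are not drawn.

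The same lists of chaperone and partner genes were followed for ML-792 at 16 h, where 14.7%, 37% and 16.9% of all genes were called in HCT116, COLO205 and MDAMB231. Of the 12 heat-inducible chaperones 4 rose and none fell in HCT116, 3 rose and 4 fell in COLO205, and 2 rose and 1 fell in MDAMB231. With equal summed FPKM these counts were 3 and 0, 3 and 5, and 2 and 2. The median log2 changes of this list were 0.11, -0.06 and -0.01 as deposited. SERPINH1 rose in each line, by 0.70 ± 0.07, 0.45 ± 0.07 and 0.38 ± 0.07 on the log2 scale, as did the exchange factor HSPH1, by 0.47 ± 0.06, 0.31 ± 0.06 and 0.22 ± 0.06. Of the 8 exchange factors listed, 2 rose and 0 fell in HCT116, 2 rose and 3 fell in COLO205, and 2 rose and 0 fell in MDAMB231, as deposited. Of the 19 BAG partners tested, none rose and 2 fell in HCT116, 4 rose and 6 fell in COLO205 (3 and 5 with equal summed FPKM), and 3 rose and 1 fell in MDAMB231. The partners were thus called at 2, 10 and 4 of 19, and the chaperones at 4, 7 and 3 of 12. The effect itself differed for 4 of 12 chaperones and 5 of 19 partners in COLO205 minus HCT116, where 19.4% of all genes did, and for 2 of 12 and 4 of 19 in MDAMB231 minus HCT116, where 10.8% did. For MDAMB231 minus COLO205 it differed for 3 of 12 and 8 of 19, where 26% of all genes did. SQSTM1, the autophagy receptor p62, rose by 0.94 ± 0.05 in COLO205 and by 0.64 ± 0.05 in MDAMB231. TNFRSF1A fell by 0.52 ± 0.05 in HCT116 and by 0.52 ± 0.05 in COLO205. With heat shock at 3.5 h, 33.5% of all genes were called for ML-792 as deposited. There ML-792 raised the same 4 of the 12 heat-inducible chaperones under all 3 scalings. It lowered 1 of them, HSPD1, under both scalings other than the deposited one. DNAJB1 changed by 0.39 ± 0.08, and HSPA6 rose by 1.00 ± 0.11. All of these passed an adjusted p of 0.05 in limma.

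The untreated lines also differed in these genes. Among DMSO libraries at 16 h, BAG3 averaged 12.5 ± 0.2 FPKM in COLO205, 47.6 ± 1.3 FPKM in MDAMB231 and 50.5 ± 2.7 FPKM in HCT116. HSPB1 averaged 114 ± 5 FPKM in COLO205, 279.9 ± 27.5 FPKM in MDAMB231 and 508 ± 85 FPKM in HCT116. BAG4 showed the same order of means, at 2.85 ± 0.14, 4.53 ± 0.18 and 9.82 ± 0.21 FPKM. BAG1 ran differently, with 11.7 ± 0.5 FPKM in COLO205, 15.7 ± 0.5 FPKM in MDAMB231 and 8.21 ± 0.37 FPKM in HCT116.

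Against HCT116, COLO205 was lower for HSPB1, HSPB8, BAG3 and BAG4 and higher for BAG1, with log2 differences of -2.14 ± 0.12, -1.75 ± 0.06, -1.93 ± 0.06, -1.49 ± 0.06 and 0.47 ± 0.04. These were 5 of 7 genes called by limma, where 84.9% of all genes were called, and BAG2 and BAG5 differed by 0.06 ± 0.08 and -0.10 ± 0.08. HSPB8 was listed at 0 in COLO205, so its size is set by the pseudocount, at -4.62 with 0.1 and -0.56 with 5, and BAG4 had -0.92 with 5. MDAMB231 was lower than HCT116 for HSPB1 (-0.85 ± 0.12) and BAG4 (-0.97 ± 0.06) and higher for HSPB8 (0.95 ± 0.06), BAG1 (0.86 ± 0.04) and BAG2 (0.39 ± 0.08), again 5 of 7 where 83.6% of all genes were called. With a pseudocount of 5 those of BAG4 and HSPB8 were -0.64 and 0.51. BAG3 had -0.08 ± 0.06 there, which was 0.01 and 0.04 under median-of-ratios scaling and with equal summed FPKM. Between MDAMB231 and COLO205, 6 of 7 were higher in MDAMB231, where 41.9% of all genes were higher and 86.4% were called in either direction. They were BAG3 at 1.85 ± 0.06, HSPB1 at 1.29 ± 0.12, BAG4 at 0.52 ± 0.06 (0.28 with a pseudocount of 5), BAG1 at 0.39 ± 0.04, BAG2 at 0.33 ± 0.08 and HSPB8, whose 2.70 ± 0.06 became 5.81 with a pseudocount of 0.1 and 1.07 with 5. BAG5 was not called in any of the 3, with means of 10.7 ± 0.2 FPKM in COLO205, 10.3 ± 1.3 FPKM in MDAMB231 and 11.6 ± 1.3 FPKM in HCT116. For MDAMB231 against HCT116 it differed by -0.15 ± 0.08 (adjusted p = 0.075), but by -0.20 and -0.25 with a call without HCT116 DMSO replicate 2 or MDAMB231 DMSO replicate 2 (adjusted p = 0.040 and 0.0048). BAG5 was called there in no other alternative, and with equal summed FPKM it differed by -0.04 (adjusted p = 0.64). Its MDAMB231 minus COLO205 difference of -0.05 ± 0.08 was 0.06 with equal summed FPKM. CRYAB was not tested in these comparisons. Each line is 1 cell line, so these are differences between lines and not between tumour types.

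Over all 10 groups, group means of BAG3 spanned 61.9-fold and those of HSPB1 19.8-fold, while those of BAG1, BAG2 and BAG5 spanned 1.91-fold, 1.88-fold and 2.00-fold and those of BAG4 4.73-fold. CRYAB reached 1 FPKM in only 6 of 30 libraries, the heat-shocked ones, and HSPB8 in 24. In the order of BAG3 means, the 2 heat-shocked groups led without overlapping each other, MDAMB231 in ML-792 followed at 60.5 FPKM, and the next 4 groups, between 47.6 and 50.5 FPKM, each overlapped their neighbour. HCT116 in DMSO at 3.5 h without heat shock followed at 43.7 FPKM without overlapping them, and the 2 COLO205 groups came last. For HSPB1 the heat-shocked groups overlapped each other and led, and HCT116 at 16 h in ML-792 and in DMSO came next at 681 and 508 FPKM. HCT116 cells in DMSO thus held 508 FPKM of HSPB1 at 16 h and 222 FPKM at 3.5 h, in experiments that differ in more than time.

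Genes whose pattern was most like that of a member were ranked by Pearson r of log2(FPKM + 1) over the 12 HCT116 libraries of 3.5 h, which fall into a heat-shocked and an unshocked set. BAG3 was most like HSPA1B (r = 0.9997), DNAJB1 (0.999) and ENGASE (0.999). HSPB1 was most like KLK6, MBOAT7 and AHSA1, HSPB8 most like STAT2, IER5 and ZFAND2A, and CRYAB most like RFPL2, TRIM26 and CLU, with r between 0.997 and 0.999. For BAG4, which fell, they were CD164, FAM122B and TMEM106B, with r of 0.992 to 0.993. For BAG1 the highest r was 0.835, that of POLR1E. Over all 30 libraries, which also differ in line and experiment, HSPA1B remained among the closest 3 genes of BAG3 (r = 0.981).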

How the data were processed

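Stranded polyadenylated RNA libraries were made from biological triplicates, per the labels' protocols. The authors deposited 1 table of FPKM values for 30373 genes in 30 libraries. DESeq2 1.10.1 is named by the submitters' processing notes, with no role. The aligner, genome build and counting rules: not given in the sources used here. Each column was matched to its sample by the code in the labels. Because the values are FPKM and not counts, limma 3.58.1 in R 4.3.3 was fitted to log2(FPKM + 1), with trend and robust moderation, for genes that reached 1 FPKM in 3 or more libraries of a fit. A log2 change on this scale understates the change of low genes. There were 3 fits: 16 h (18 libraries and 14251 genes), 3.5 h (12 and 12191), and HCT116 without heat shock at both times (12 and 12462). They gave 15 comparisons, 10 between groups and 5 between effects. Adjusted p-values are Benjamini-Hochberg values over all genes of a comparison, and called means under 0.05. Folds are ratios of mean FPKM. p-values measure only the spread between these libraries. The fitting code was tested on simulated data.

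The genes and the gene lists were chosen with earlier results of these data known. All 8 genes are followed in every comparison in which they passed the filter. List genes are named, up to 4 a direction by smallest p, from those past the test. The alternatives were pseudocounts of 0.1 and 5 FPKM, a filter at 5 FPKM and none, no trend or robust moderation, a fit of only the libraries compared, median-of-ratios scaling, scaling to equal summed FPKM, and leaving out each library. Promoter sequences are from RefSeq, build GRCh38.p14. Figures were drawn with matplotlib.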

Additional observations from a re-analysis of the deposited data

Results flagged for a closer look

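At 16 h the effect of ML-792 on BAG3 differed between lines by a test of the difference itself. It was larger in COLO205 than in HCT116 by 0.51 ± 0.09 on the log2 scale (limma adjusted p = 0.00050) and larger in MDAMB231 than in HCT116 by 0.42 ± 0.09 (adjusted p = 0.0040). All 3 ML-792 libraries lay above all 3 DMSO libraries in COLO205 and in MDAMB231, and the HCT116 libraries overlapped.

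The effect on HSPB8 was larger in MDAMB231 than in HCT116 by 0.33 ± 0.08 (adjusted p = 0.011), a call lost with a pseudocount of 0.1 (adjusted p = 0.069). For MDAMB231 minus COLO205 the fit gave HSPB8 0.24 ± 0.08 (adjusted p = 0.030). HSPB8 was listed at 0 in all 6 COLO205 libraries, so no effect could be measured there and this value is the MDAMB231 change alone. Its call was lost with a pseudocount of 0.1 (adjusted p = 0.13) and without any one of 8 of the 12 libraries of these lines. No group holds more than 3 libraries, so none was searched for a library far from the others.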

How the results depend on the processing

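Across 8 other settings and the leaving out of each library, 1738 alternative values of the genes' log2 changes were computed: 1618 kept their direction and side of the threshold, 28 lost a call, 27 gained one, 64 changed sign without being called, and 1 changed sign with a call. That one was BAG2 with heat shock in ML-792, at -0.23 with equal summed FPKM against 0.06 as deposited. The number of the genes called moved most, relative to its size, as follows. For ML-792 against DMSO with heat shock it was 2, became 0 in a fit of the compared libraries only and 4 with equal summed FPKM or median-of-ratios scaling, and ran from 2 to 4 with a library left out. Without heat shock it was 0 and became 2 in a fit of the compared libraries. In HCT116 at 16 h it was 1, became 0 in that fit and ran from 0 to 1 with a library left out. For the difference of heat effects it was 0, became 1 with a filter at 5 FPKM or median-of-ratios scaling, and ran from 0 to 1. For 16 h minus 3.5 h it was 0, became 1 with equal summed FPKM, and ran from 0 to 1. For MDAMB231 minus COLO205 it was 1, became 2 in a fit of the compared libraries or with no filter and 0 with a pseudocount of 0.1, and ran from 0 to 2. For MDAMB231 minus HCT116 it was 2 and became 1 with a pseudocount of 0.1. Smaller moves came elsewhere. For heat shock in ML-792 it was 6, ran from 5 to 8 in other settings and was 5 with any compared library left out. For heat shock in DMSO it was 7, and 6 to 7 with a library left out. ML-792 in COLO205 had 2, and 2 to 3 in other settings. Untreated COLO205 against HCT116 had 5 (5 to 6), and MDAMB231 against COLO205 had 6 (6 to 7). Untreated MDAMB231 against HCT116 had 5, and 5 to 6 with a library left out.

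Over all genes, the heat effect differed by drug in 781 genes, in 247 with equal summed FPKM, 211 with no filter and 77 to 2520 with a library left out. Genes called for ML-792 in HCT116 numbered 147 at 3.5 h without heat shock (728 in a fit of the compared libraries, 83 to 93 with a library left out), 4083 with heat shock (255, and 1629 to 5011) and 2101 at 16 h (1316, and 1180 to 2822). For 16 h minus 3.5 h they numbered 299, and 156 to 808 with a library left out. As shares of calls that were higher, ML-792 with heat shock gave 54.9% as deposited, 37.1% under median-of-ratios scaling and 32.8% with equal summed FPKM, ML-792 in HCT116 at 16 h gave 56.4%, 45.3% and 35.4%, the difference of heat effects gave 38.7%, 19.7% and 14.98%, and 16 h minus 3.5 h gave 46.8%, 41.7% and 35.4%. The smaller fits hold fewer libraries and take the spread of each gene from those libraries only, whereas the main fits share it over all their groups. The cause of these moves was not tested.

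CRYAB in ML-792 without heat shock could not be fitted in the compared libraries alone, nor HSPB8 in COLO205, nor HSPB8 for 16 h minus 3.5 h with a filter at 5 FPKM. No paired analysis was possible because no replicate number that groups share stands in the labels. Depth was estimated and not given, so no counting interval is printed, and values of CRYAB under 0.1 FPKM rest on very few fragments.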
